A study of Mus musculus with 9 samples.

Results

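The genes of tendon and of the periosteum, the fibrous sheath of bone, were followed in the temporomandibular joint of the mouse embryo. They are 9 genes: Scx, Mkx, Tnmd, Col12a1, Col14a1, Tnc, Thbs2, Thbs4 and Postn. Every probe set that the annotation of the Affymetrix mouse array gives to 1 of these symbols was taken, whatever its values, which gave 18 probe sets of the 45037 tested and 9 genes of 18193. There were 3 arrays of the condyle (the rounded end of the lower jaw within the joint), 3 arrays of the fossa (the socket that faces it) and 3 arrays of the whole body, all from embryos at embryonic day 16.5. No strain, genotype or drug is named for any group, and fresh frozen tissue taken by laser capture is given for all 9 arrays, the whole body arrays included. The samples are called biological triplicates, without saying which embryo each came from, so p-values measure only the spread between these samples. The whole body is itself a mixture that holds tendons, periosteum and joints.

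Tnmd (tenomodulin) was 5.76-fold lower in condyle and 5.41-fold lower in fossa than in the whole body (adjusted p = 0.0289 and 0.0159 in limma). Col12a1, the alpha chain of collagen XII, was 3.38-fold higher in condyle than in the whole body (adjusted p = 0.0232), by its brightest probe set. That probe set was 2.40-fold higher in condyle than in fossa (adjusted p = 0.037), and no other Col12a1 probe set was called. A dim probe set of Thbs2 was at least 2.78-fold higher in fossa than in the whole body by group means (95% interval in log2 0.56 to 2.62, adjusted p = 0.0486). No other Thbs2 probe set was called, with log2 differences of -0.12 in the brightest and 1.58 in 1422571_at. Each of these calls was lost when 1 or another single array was left out, and each was lost with a common floor under all arrays. Those of Col12a1 were also lost under quantile normalization. With a block by replicate number, only the fossa call of Tnmd was kept. The test called no difference for the other 6 genes. Tnc came nearest: all 3 condyle and all 3 fossa arrays lay above all 3 whole body arrays, with adjusted p = 0.112 for condyle and adjusted p = 0.101 for fossa. Scx, the transcription factor that defines the tendon lineage, lay at or close to the background of the arrays in all 3 groups.

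As background, tendon cells arise from progenitors that express the transcription factor Scx, and Mkx then acts with it on collagen genes as the tendon matures. Tnmd is a membrane glycoprotein of differentiated tendon and ligament cells, and in the mouse its expression in tendon depends on Scx. Tenascin C, periostin and the fibril-associated collagens XII and XIV are matrix proteins of tendon and ligament, and tenascin C, periostin and collagen XII also belong to the periosteum and perichondrium that sheathe growing bone and cartilage. Thrombospondins are secreted glycoproteins that bind matrix and cell surface receptors, and in the mouse Thbs4 is concentrated where muscle meets tendon. Scx is a basic helix-loop-helix factor, and proteins of that class bind the DNA letters CANNTG.

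RefSeq promoter windows of build GRCm38.p6 were matched for 5 of the 9 genes, in 7 windows of 250 bases before to 50 bases after a transcript start. The window of Tnmd is shown because Tnmd was lower in both joint tissues. Those of Thbs2 and Tnc are shown because probe sets of these genes lay higher in joint tissue, and 1 window is shown of the 2 that overlap at Tnc. All are printed from 5′ to 3′ on the strand of the gene, and capitals mark CANNTG and TATAAA on either strand, with TATAAA reading as TTTATA where it lies on the other strand.
Tnmd promoter, chrX:133850758-133851057, plus strand: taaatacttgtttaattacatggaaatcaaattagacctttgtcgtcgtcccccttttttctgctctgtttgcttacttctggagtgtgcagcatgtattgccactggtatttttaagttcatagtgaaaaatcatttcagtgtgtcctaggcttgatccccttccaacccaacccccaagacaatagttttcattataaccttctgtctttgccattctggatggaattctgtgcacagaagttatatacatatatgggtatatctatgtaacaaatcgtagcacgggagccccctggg
Thbs2 promoter, chr17:14694213-14694512, minus strand: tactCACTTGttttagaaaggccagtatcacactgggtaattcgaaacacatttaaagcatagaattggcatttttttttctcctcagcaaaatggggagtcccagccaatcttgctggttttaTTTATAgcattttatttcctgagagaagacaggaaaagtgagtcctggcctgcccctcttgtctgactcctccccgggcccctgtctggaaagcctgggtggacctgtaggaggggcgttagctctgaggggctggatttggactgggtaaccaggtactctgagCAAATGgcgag
Tnc promoter, chr4:64046966-64047265, minus strand: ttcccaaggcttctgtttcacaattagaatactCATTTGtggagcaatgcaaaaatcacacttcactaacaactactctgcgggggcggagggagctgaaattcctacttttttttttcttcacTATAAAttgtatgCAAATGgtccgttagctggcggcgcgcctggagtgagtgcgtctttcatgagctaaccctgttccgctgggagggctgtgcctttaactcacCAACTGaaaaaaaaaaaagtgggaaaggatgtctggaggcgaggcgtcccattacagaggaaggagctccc
The Tnmd window held no CANNTG and no TATAAA. The Thbs2 window held 2 CANNTG words, CACTTG starting at base -246 from the transcript start and CAAATG at base 40, and TATAAA on the other strand at base -126. The Tnc window held 3 CANNTG words, at bases -217, -113 and -21, and TATAAA at base -126. CANNTG was present in 72.3% of the 32851 RefSeq windows of this length and TATAAA in 13.6%. The stricter word CAGATG, which CANNTG covers, was present in 17.2% of all windows and in none of the 7. These matches are descriptions of letters and were not tested for binding.

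Levels are log2 intensities, and a difference of 1 is a doubling of intensity. Levels of different probe sets are not comparable with each other, since each has its own probes. Each array has 27 probe sets for Bacillus subtilis transcripts, and the brightest of them set its background limit, which lay between 2.87 and 2.94 on the condyle arrays, 2.89 and 3.52 on the fossa arrays and 3.09 and 3.36 on the whole body arrays. A share of 45.4% to 46.9% of all probe sets was above it on the condyle arrays, 30.3% to 43.8% on the fossa arrays (lowest on fossa 1) and 37.4% to 45.9% on the whole body arrays. Of the 18 probe sets of tendon and periosteum genes, 9 were above background on all 9 arrays, 7 on some of them and 2 (of Col12a1) on none. Cartilage markers checked the labelled tissues: 12 measured genes summed to intensities of 7962 to 14251 on the condyle arrays, 6914 to 18545 on the fossa arrays and 931 to 1062 on the whole body arrays. Markers of epithelium were present in the joint samples too, with sums of 23965 to 56623 on the condyle arrays, 1950 to 47976 on the fossa arrays and 16097 to 18419 on the whole body arrays.

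**Figure D1:**
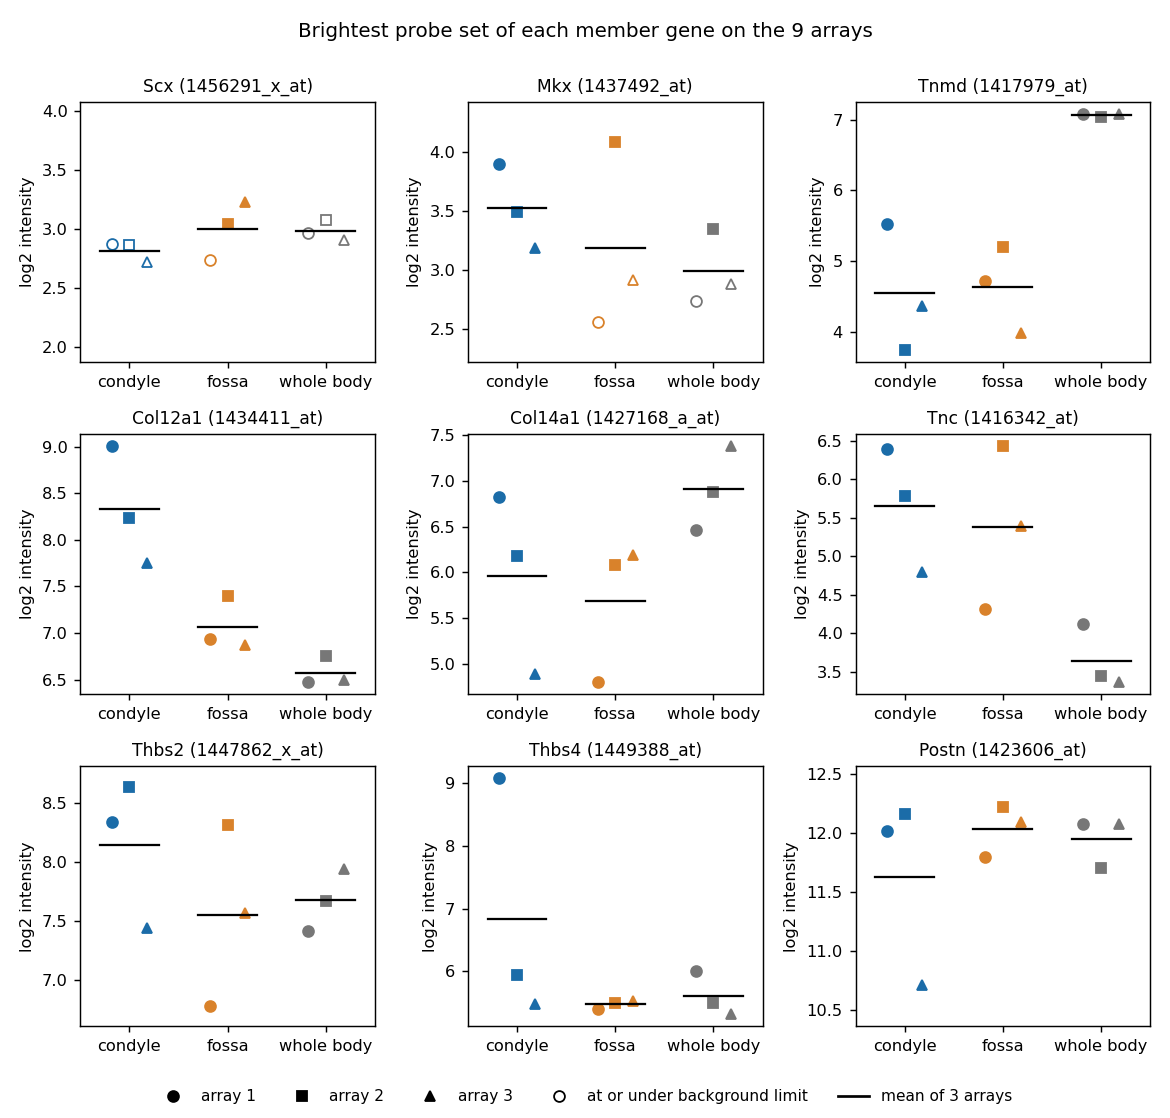
Log2 intensity of the brightest probe set of each of the 9 genes (y axis, own scale in each panel) in condyle, fossa and whole body (x axis). Points are single arrays, open points lie at or under the background limit of their array, and bars are means of 3 arrays. The whole body arrays of Tnmd lie together above 7, while the joint arrays lie between 3.74 and 5.53. Condyle 1 stands 3.08 above every other array in Thbs4.

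Limma called 2 of the 18 probe sets between condyle and whole body, 1 higher and 1 lower, at Benjamini-Hochberg adjusted p under 0.05 over all probe sets. Over all 45037 probe sets it called 6.19% in this comparison, 4.21% higher and 1.99% lower. Between fossa and whole body it called 2 of the 18, 1 higher and 1 lower, against 16.8% of all probe sets, of which 3.69% were higher and 13.1% lower. Between condyle and fossa it called 1 of the 18, which was higher, against 16.0% of all probe sets, with 12.0% higher and 4.02% lower. Counts of 1 or 2 among 18 probe sets lie near these shares, so the counts by themselves are no result about tendon and periosteum genes.

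By 1 probe set per gene, the brightest over the 9 arrays, the median log2 difference of the 9 genes was 0.46 for condyle minus whole body, against -0.03 over all genes. It was 0.02 for fossa minus whole body, against -0.11, and 0.28 for condyle minus fossa, against 0.21. Genes lay on both sides of 0 in all 3 comparisons. The arrays of the groups did not overlap for 3 higher and 5 lower of the 18 probe sets between condyle and whole body, while 12.5% of all probe sets were higher and 43.3% lower in this way, 55.8% together. For fossa and whole body these were 4 higher and 2 lower, against 10.8% and 29.5% of all probe sets, 40.4% together. For condyle and fossa they were 1 higher and 3 lower, against 27.0% and 23.6%, 50.6% together. These 3 lower probe sets were all at background in both groups. Of the 5 probe sets lower in condyle than in whole body without overlap, only Tnmd was above background on the arrays of both groups.

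**Figure D2:**
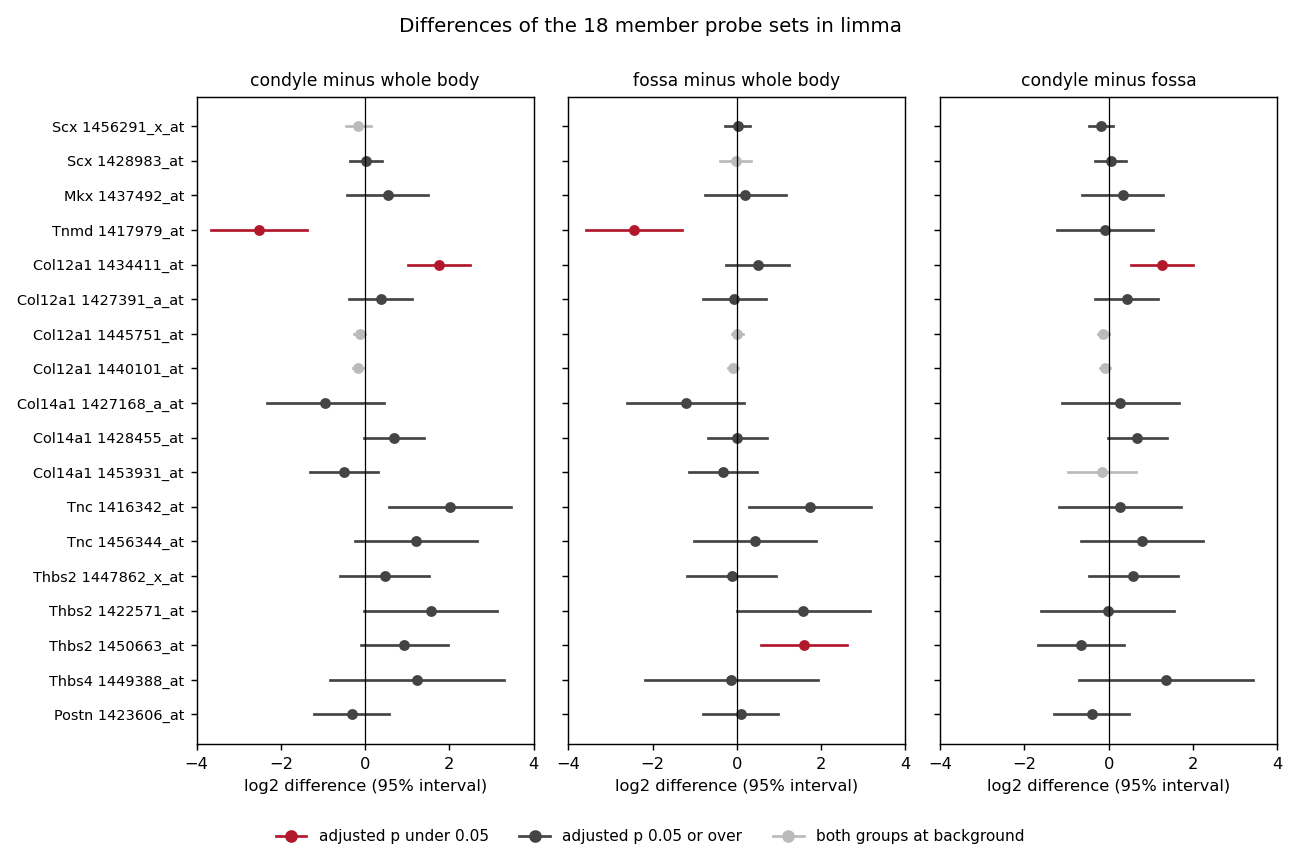
Log2 difference with its 95% confidence interval (x axis) of each of the 18 probe sets (rows) in limma, for the 3 comparisons in separate panels. Red marks an adjusted p under 0.05 and pale grey a pair of groups at background. Tnmd is red and left of 0 in both comparisons with the whole body, and Col12a1 1434411_at is red and right of 0 in both comparisons with condyle on top. The red Thbs2 1450663_at point rests on a whole body group at background on all but 1 array.

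Scx was scarcely measurable. Its brighter probe set, 1456291_x_at (the suffix marks probes that may also match other genes), gave 2.87, 2.86 and 2.72 on the condyle arrays, 2.74, 3.04 and 3.23 on the fossa arrays and 2.97, 3.07 and 2.91 on the whole body arrays. Only fossa 2 and fossa 3 were above the background limit. The other Scx probe set, 1428983_at, gave 2.89, 2.72 and 2.50 in condyle, 2.67, 2.52 and 2.76 in fossa and 2.89, 2.77 and 2.38 in whole body, with condyle 1 alone above the limit. Adjusted p ran over 0.372 to 0.93 for the brighter probe set and 0.866 to 0.928 for the other. These values are bounds, and no level of Scx can be ordered between the groups.

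Mkx, a homeobox factor of tendon, had log2 levels of 3.90, 3.49 and 3.18 in condyle, 2.56, 4.08 and 2.92 in fossa and 2.74, 3.34 and 2.88 in whole body. It was above background on all 3 condyle arrays but on 1 array in fossa and 1 in whole body, and the groups overlapped. The condyle level was at least 1.20-fold that of the whole body (log2 difference 0.54 ± 0.41 SE, adjusted p = 0.383), and condyle minus fossa was 0.34 ± 0.41 (adjusted p = 0.626). Fossa and whole body differed by 0.20 ± 0.41 (adjusted p = 0.778). No difference in Mkx was called.

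Tnmd had log2 levels of 5.53, 3.74 and 4.36 in condyle, 4.72, 5.19 and 3.97 in fossa and 7.08, 7.04 and 7.08 in whole body. All arrays were above background, every joint array lay below every whole body array, and the joint arrays spread widely while the whole body arrays hardly varied. The means were 4.54 ± 0.91 in condyle, 4.63 ± 0.61 in fossa and 7.07 ± 0.03 in the whole body (SD, n = 3 each). Condyle minus whole body was -2.53 ± 0.48 SE (95% interval -3.66 to -1.39, adjusted p = 0.0289) and fossa minus whole body was -2.44 ± 0.48 (-3.57 to -1.30, adjusted p = 0.0159). Both comparisons share the whole body arrays. Condyle minus fossa was -0.09 ± 0.48, with an interval of -1.23 to 1.05 and adjusted p = 0.924, an interval wide enough to hold a difference of 1 log2 unit in either direction between the joint tissues. In such bulk samples, fewer cells of a type and less RNA per cell cannot be told apart. The condyle call was lost without condyle 2 (adjusted p = 0.0678), without condyle 3 (adjusted p = 0.0912) and without any 1 whole body array (adjusted p = 0.0647 to 0.0797), and the fossa call without fossa 3 (adjusted p = 0.051). A common floor under all arrays ended both calls (adjusted p = 0.0637 and 0.0605). Every Tnmd value lay above that floor, so both differences stayed as they were, at -2.53 and -2.44. The difference itself stayed between -3.02 and -2.11 when any 1 array was left out.

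Other values moved with Tnmd between joint and whole body. The 16 measured skeletal muscle markers summed to intensities of 718 to 4851 in condyle, 1572 to 6657 in fossa and 9305 to 10360 in the whole body, with 11 to 13 of the 16 above background on each array and Myod1 at background on all. Their median log2 difference was -1.10 for condyle and -0.99 for fossa against the whole body; limma called none of the 16 in condyle, and in fossa it called Mylpf and Ckm lower, Ckm at background in both groups. The 7 red cell markers summed to 4527 to 33070 in condyle, 1336 to 18661 in fossa and 46180 to 50239 in the whole body, with 4 of 7 called lower in each joint tissue. The 18S ribosomal RNA control had mean log2 levels of 8.27 ± 2.09 for condyle, 8.33 ± 1.32 for fossa and 13.35 ± 0.12 for the whole body (SD, n = 3 each), without overlap of joint and whole body. The part of these in the Tnmd result was not tested.

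**Figure D3:**
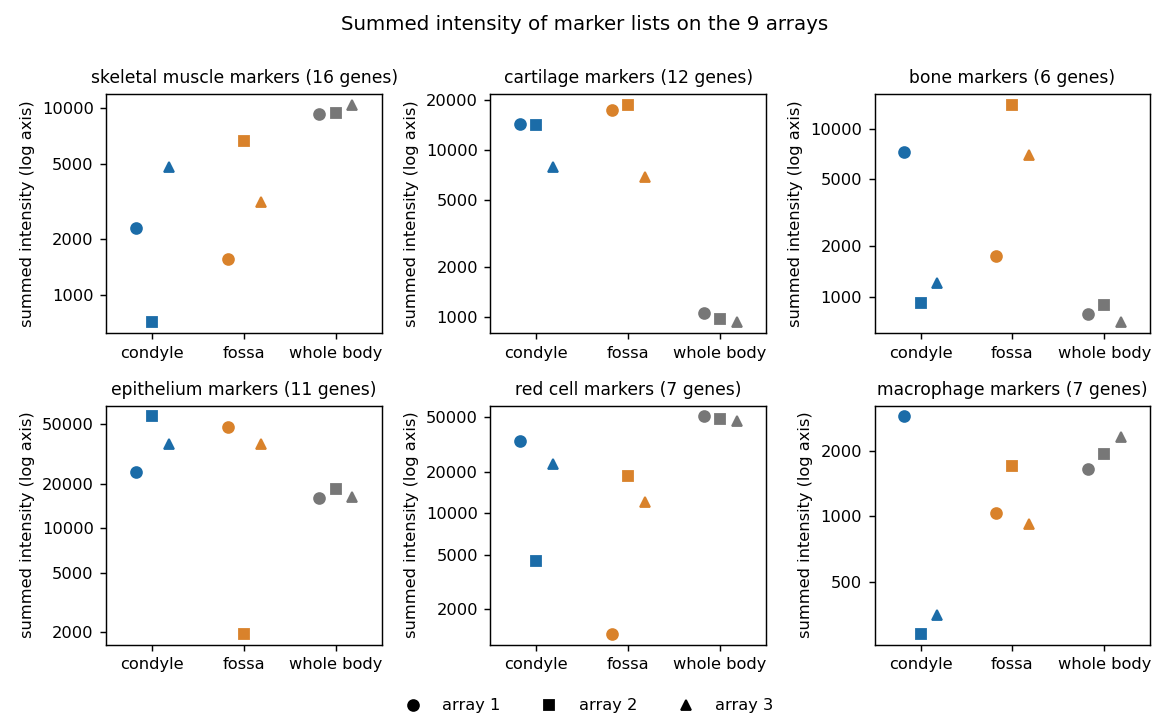
Summed linear intensity (y axis, log scale) of 6 marker lists, 1 probe set per gene, on each array of condyle, fossa and whole body (x axis). Points are single arrays. Muscle and red cell sums are highest on the whole body arrays, and cartilage sums lie above the whole body on all 6 joint arrays. Bone, epithelium and red cell sums differ by more than 7-fold among the 3 fossa arrays. Bone, red cell and macrophage sums do so among the 3 condyle arrays.

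Col12a1 was measured by 4 probe sets. The brightest, 1434411_at, had log2 levels of 9.01, 8.24 and 7.75 in condyle, 6.93, 7.40 and 6.87 in fossa and 6.47, 6.75 and 6.50 in whole body. The 3 groups did not overlap, in the order condyle, fossa, whole body, with means of 8.33 ± 0.63, 7.07 ± 0.29 and 6.57 ± 0.16 in that order (SD, n = 3 each). Condyle minus whole body was 1.76 ± 0.31 SE (95% interval 1.01 to 2.50, adjusted p = 0.0232) and condyle minus fossa was 1.27 ± 0.31 (0.52 to 2.01, adjusted p = 0.037). Fossa minus whole body was 0.49 ± 0.31, with an interval of -0.25 to 1.23 (adjusted p = 0.333), and was not called. The condyle call against the whole body was lost without condyle 2 (adjusted p = 0.0645) or any 1 whole body array (0.0574 to 0.0706), with differences of 1.42 to 2.05 over all arrays left out in turn. It was also lost under quantile normalization (1.43, adjusted p = 0.0629), with a common floor (adjusted p = 0.0533) and with only the groups compared (adjusted p = 0.0583). The call against fossa was lost without condyle 1, condyle 2, fossa 1, fossa 3 or any 1 whole body array (adjusted p = 0.0536 to 0.108), and quantile normalization lowered that difference to 0.60 (adjusted p = 0.314). It was lost too with a common floor (adjusted p = 0.118) and with only the groups compared (adjusted p = 0.0788). Every value of this probe set lay above the floor, which left its differences as they were.

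The second Col12a1 probe set, 1427391_a_at, did not show this order. Its log2 levels were 4.17, 4.44 and 4.22 in condyle, 3.80, 4.38 and 3.38 in fossa and 4.22, 3.33 and 4.17 in whole body, and the groups overlapped. Its differences were 0.37 ± 0.32 SE for condyle minus whole body (adjusted p = 0.435), -0.06 ± 0.32 for fossa minus whole body (adjusted p = 0.922) and 0.43 ± 0.32 for condyle minus fossa (adjusted p = 0.42). The remaining 2 probe sets, 1445751_at and 1440101_at, were at or under background on all 9 arrays, with levels between 2.41 and 2.70. The higher level of Col12a1 in condyle thus rests on 1 of its 4 probe sets.

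Col14a1, the alpha chain of collagen XIV, which coats fibrils of tendon and skin, had brightest levels (1427168_a_at) of 6.83, 6.18 and 4.89 in condyle, 4.80, 6.08 and 6.19 in fossa and 6.46, 6.88 and 7.38 in whole body. All fossa arrays lay below all whole body arrays, while condyle 1 fell among them. Condyle minus whole body was -0.94 ± 0.59 SE (95% interval -2.33 to 0.44, adjusted p = 0.316) and fossa minus whole body -1.22 ± 0.59 (-2.60 to 0.17, adjusted p = 0.209). Condyle and fossa differed by 0.27 ± 0.59 (adjusted p = 0.796). A dimmer probe set, 1428455_at, pointed the other way for condyle: 4.31, 3.58 and 3.11 in condyle, 2.84, 2.79 and 3.34 in fossa and 3.05, 2.90 and 2.99 in whole body. It was above background on all condyle arrays, on fossa 3 and on no whole body array. Its mean condyle level was at least 1.40-fold that of the whole body, with a 95% interval in log2 of -0.02 to 1.39 (adjusted p = 0.216). The third, 1453931_at, was above background on whole body 1 alone, at 3.68. No Col14a1 difference was called, and its probe sets disagreed in direction.

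Tnc (tenascin C) gave log2 levels of 6.40, 5.78 and 4.79 in condyle, 4.32, 6.43 and 5.40 in fossa and 4.12, 3.44 and 3.36 in whole body by its brighter probe set, 1416342_at. Every joint array lay above every whole body array, and the joint arrays covered about 2 log2 units. The means were 5.66 ± 0.81 in condyle, 5.38 ± 1.06 in fossa and 3.64 ± 0.42 in the whole body (SD, n = 3 each). Condyle minus whole body was 2.02 ± 0.61 SE (95% interval 0.57 to 3.46, unadjusted p = 0.0132 and adjusted p = 0.112), and fossa minus whole body 1.74 ± 0.61 (0.30 to 3.19, unadjusted p = 0.0247 and adjusted p = 0.101). Neither passed the threshold, and fossa minus whole body passed it only when fossa 1 was left out (2.27, adjusted p = 0.0473). Condyle and fossa differed by 0.28 ± 0.61 (adjusted p = 0.805). The dimmer probe set, 1456344_at, had 4.78, 5.43 and 2.99 in condyle, 3.02, 4.21 and 3.60 in fossa and 3.26, 3.19 and 3.12 in whole body. Its mean condyle level was at least 2.19-fold that of the whole body, with condyle 3 below all whole body arrays. The 95% interval of this log2 difference, -0.24 to 2.66, held 0 (adjusted p = 0.259).

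**Figure D4:**
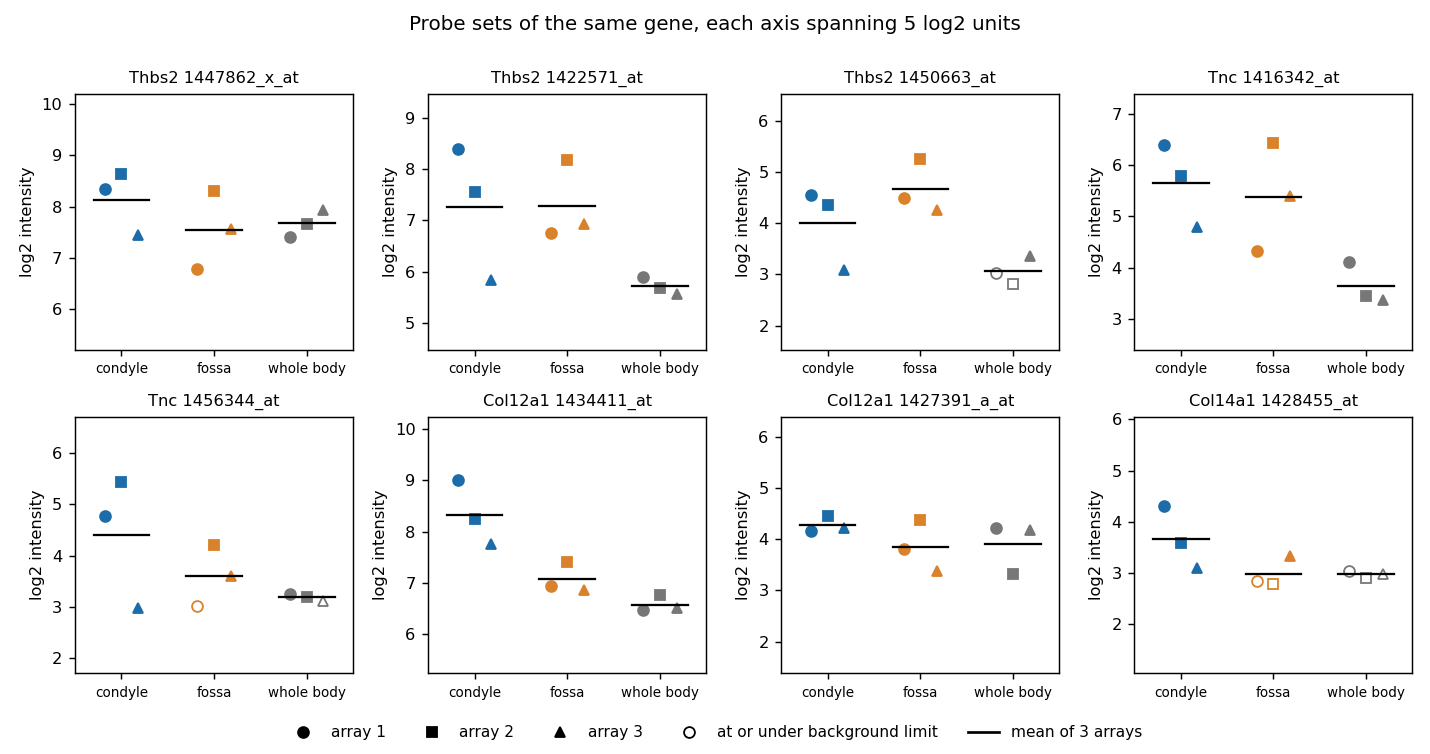
Log2 intensity (y axis) of 8 probe sets of Thbs2, Tnc, Col12a1 and Col14a1 on the arrays of condyle, fossa and whole body (x axis), with every axis spanning 5 log2 units. Points are arrays, open points are at or under background, and bars are means of 3 arrays. The fossa arrays lie above the whole body arrays in 2 Thbs2 probe sets and among them in the brightest, and Col12a1 1434411_at separates the groups while 1427391_a_at does not.

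Thbs2, a thrombospondin of fibrous connective tissue, was measured by 3 probe sets that gave different results. In 1 of them, 1447862_x_at, the suffix marks probes that may also match other genes. The brightest, 1447862_x_at, had log2 levels of 8.34, 8.64 and 7.44 in condyle, 6.78, 8.31 and 7.56 in fossa and 7.42, 7.67 and 7.94 in whole body. All 3 groups overlapped in it, with differences of 0.46 ± 0.45 SE for condyle minus whole body (adjusted p = 0.476), -0.12 ± 0.45 for fossa minus whole body (adjusted p = 0.879) and 0.59 ± 0.45 for condyle minus fossa (adjusted p = 0.428). Probe set 1422571_at had 8.40, 7.56 and 5.84 in condyle, 6.75, 8.19 and 6.94 in fossa and 5.90, 5.68 and 5.56 in whole body. In it all fossa arrays lay above the whole body arrays and condyle 3 fell among them. Its differences were 1.55 ± 0.67 for condyle (95% interval -0.03 to 3.14, adjusted p = 0.214) and 1.58 ± 0.67 for fossa (upper bound 3.16, adjusted p = 0.161), neither of them called.

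The dimmest Thbs2 probe set, 1450663_at, had 4.55, 4.36 and 3.09 in condyle, 4.48, 5.25 and 4.25 in fossa and 3.03, 2.81 and 3.37 in whole body. It was above background on all 6 joint arrays and on whole body 3 alone. By group means, fossa was at least 2.78-fold higher than whole body, with a 95% interval in log2 of 0.56 to 2.62 (adjusted p = 0.0486). Condyle was at least 1.76-fold that of whole body, with an interval of -0.10 to 1.96 (adjusted p = 0.236). Condyle and fossa differed by -0.66 ± 0.43 SE (adjusted p = 0.361). The fossa call was kept without condyle 3 (adjusted p = 0.0176) and lost without any other 1 of the 9 arrays (adjusted p = 0.0562 to 0.13), and a common floor ended it too (adjusted p = 0.194).

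The Thbs4 differences rested on 1 condyle array. Its probe set 1449388_at had log2 levels of 9.09, 5.94 and 5.49 in condyle, 5.40, 5.50 and 5.53 in fossa and 6.01, 5.50 and 5.31 in whole body. Condyle 1 lay 3.08 above the next highest array, and the other 8 arrays lay within 5.31 and 6.01. Condyle minus whole body was 1.23 ± 0.87 SE (95% interval -0.83 to 3.29, adjusted p = 0.357) with condyle 1 and 0.11 without it. Condyle minus fossa was 1.36 ± 0.87 (adjusted p = 0.349) with condyle 1 and 0.24 without it. Fossa and whole body differed by -0.13 ± 0.87 (adjusted p = 0.935). On condyle 1 the skeletal muscle markers summed to 2303, between condyle 2 at 718 and condyle 3 at 4851. The bone markers (7268, against 921 and 1215) and the macrophage markers (2883, against 288 and 352) were at their highest for condyle. So were the red cell markers (33070, against 4527 and 22762), while the epithelium markers were lowest there (23965, against 56623 and 36962). Of the related lists described below, tendon and ligament partners (109367, against 60833 and 36470) and periosteum and perichondrium (10287, against 5821 and 4964) were also highest on condyle 1. The thrombospondin and tenascin families were not (1341, against 1259 and 2109). The part of these in the Thbs4 value was not tested.

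Postn (periostin), an integrin-binding matrix protein named for the periosteum, was bright on every array. Its probe set 1423606_at had log2 levels of 12.01, 12.16 and 10.71 in condyle, 11.80, 12.22 and 12.10 in fossa and 12.08, 11.70 and 12.07 in whole body. Condyle 3 was the lowest of all, and the other 8 arrays lay between 11.70 and 12.22. The differences were -0.32 ± 0.37 SE for condyle minus whole body (95% interval -1.21 to 0.56, adjusted p = 0.552), 0.09 ± 0.37 for fossa minus whole body (-0.80 to 0.97, adjusted p = 0.90) and -0.41 ± 0.37 for condyle minus fossa (-1.29 to 0.48, adjusted p = 0.512). Without condyle 3, condyle minus whole body was 0.14. Each of these 3 intervals spans 0.

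Within condyle and within fossa, many of these probe sets were lowest or highest on the same array. Several of them belong to the same gene, so they are not separate genes. Of the 13 probe sets above background on all condyle arrays, 11 were lowest on condyle 3, all but Tnmd and Col12a1 1427391_a_at, and 9 were highest on condyle 1. Over all 18478 probe sets above background in condyle, 37.4% were lowest on condyle 3 and 32.1% highest on condyle 1. Of the 10 probe sets above background on all fossa arrays, 8 were highest on fossa 2 and 6 lowest on fossa 1, against 39.8% and 43.0% of 12802 probe sets. Of the 9 probe sets above background on all whole body arrays, 3 were lowest on each array. Bone markers summed to 13763 on fossa 2, against 1746 on fossa 1 and 6954 on fossa 3, and the muscle markers were also highest on fossa 2, at 6657. On condyle 3 the 18S control was lowest for condyle, at 5.86, against 9.63 on condyle 1 and 9.32 on condyle 2, and the Gapdh difference of 3′ over 5′ probe sets, a measure of RNA length, was largest at 6.86, against 5.33 and 5.64. The same difference for Actb did not set condyle 3 apart, at 6.71, against 6.70 on condyle 1 and 6.52 on condyle 2. The part of these in the spread was not tested.

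Lists of related genes were read by the same test, 1 probe set per gene. Over all 18193 genes read this way, limma called 9.96% between condyle and whole body (7.05% higher and 2.91% lower), 20.1% between fossa and whole body (4.20% higher and 15.9% lower) and 19.0% between condyle and fossa (16.2% higher and 2.82% lower). Of the 9 tendon and periosteum genes it called 2, 1 and 1 in these comparisons. The members and lists were chosen with earlier results of these data known, so list counts and medians are descriptions, not independent comparisons with these shares.

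Some close relatives of the 9 genes did move. Comp, a thrombospondin of cartilage and tendon matrix, was higher in condyle (10.43 ± 0.48) and in fossa (10.86 ± 0.71) than in whole body (4.96 ± 0.15, log2 levels, SD, n = 3 each), with log2 differences of 5.47 ± 0.38 SE (adjusted p = 0.000778) and 5.90 ± 0.38 (adjusted p = 0.00021). Thbs3 was higher in condyle, by 2.50 ± 0.42 against whole body (adjusted p = 0.0188) and by 1.63 ± 0.42 against fossa (adjusted p = 0.0419). Among the 6 measured relatives in the thrombospondin and tenascin families, 2 were called higher and none lower in condyle against whole body, 1 higher and 1 lower in fossa against whole body, and 2 higher in condyle against fossa. The lower call was of Tnxb, at background in both groups, and Tnxb was also the call beside Thbs3 against fossa. Cnmd (chondromodulin), the nearest relative of Tnmd and a product of cartilage, differed from it in direction. It had levels of 9.41, 9.48 and 7.63 in condyle, 9.67, 10.15 and 7.31 in fossa and 5.78, 6.07 and 4.62 in whole body, higher in fossa by 3.55 ± 0.87 (adjusted p = 0.0347) and not called in condyle (3.35 ± 0.87, adjusted p = 0.0759).

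The other fibril-associated collagens and Tgfbi, a relative of periostin, were 8 measured genes. Limma called 5 higher in condyle than in whole body and none lower, and in fossa 4 higher and 1 lower (Col19a1, at background in both groups). Median log2 differences were 2.05 in condyle and 1.91 in fossa, against -0.03 and -0.11 over all genes. Those of collagen IX, which coats cartilage fibrils, led the list: Col9a3 was higher by 4.35 ± 0.54 SE in condyle (adjusted p = 0.00683) and by 4.46 ± 0.54 in fossa. Tgfbi was higher in condyle (11.84 ± 0.41) than in fossa (9.93 ± 0.27) and whole body (9.72 ± 0.21, log2 levels, SD, n = 3 each), with differences of 1.91 ± 0.23 SE (adjusted p = 0.00336) and 2.12 ± 0.23 (adjusted p = 0.00455). Like the brightest Col12a1 probe set, it was not called in fossa against whole body (0.21 ± 0.23, adjusted p = 0.581). The cartilage marker sums given above moved with these collagens, partly by construction, since Col9a1 belongs to both lists, as Comp and Cnmd belong to the cartilage list too. The part of the other cartilage markers was not tested.

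**Figure D5:**
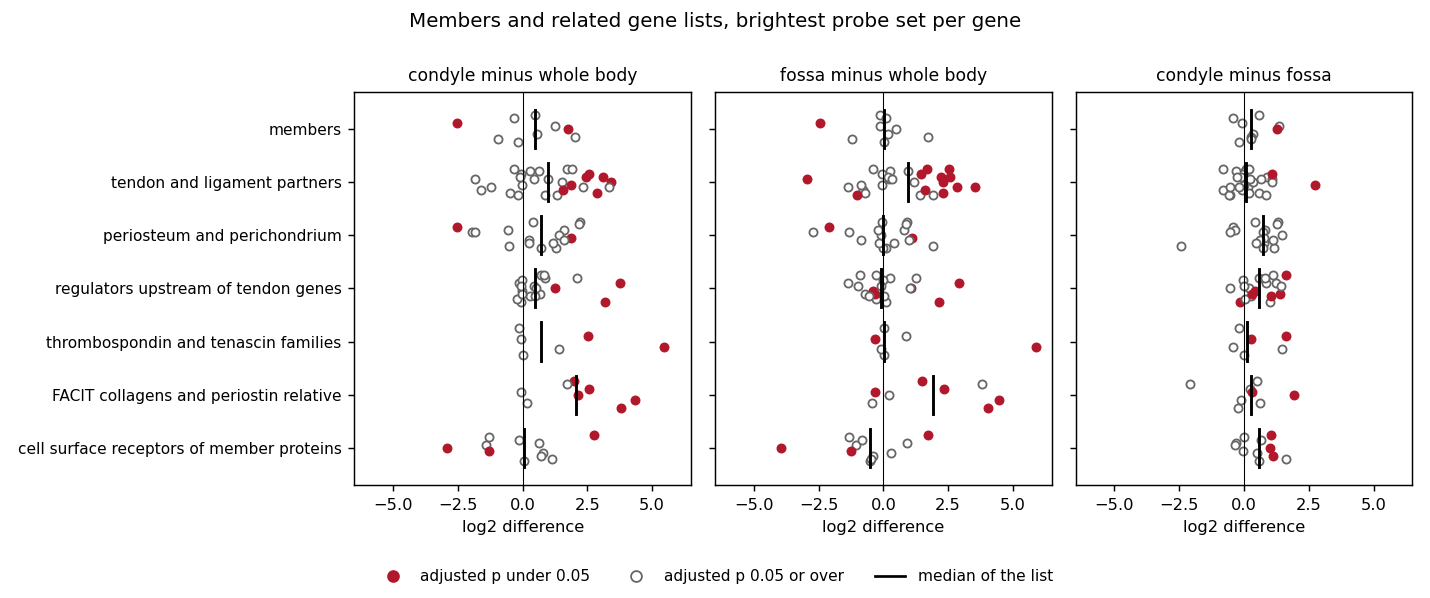
Log2 difference (x axis) of the 9 tendon and periosteum genes and of 6 related lists (rows), 1 probe set per gene, for the 3 comparisons in separate panels. Filled points passed the test and open points did not, and upright bars are list medians. The 9 genes lie on both sides of 0, while most called partners of tendon and ligament and most called fibril-associated collagens lie to the right of 0 in both comparisons with the whole body.

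Of 27 measured genes that work beside them in tendon and ligament matrix or in its cells, 7 were called higher and none lower in condyle against whole body. In fossa 10 were called higher and 2 lower, and between condyle and fossa 2 were higher. The median difference was 0.97 in condyle and 0.96 in fossa. Markers of bone and cartilage lay higher in the joint samples as well: the 6 bone markers summed to intensities of 921 to 7268 in condyle, 1746 to 13763 in fossa and 707 to 895 in the whole body, and the cartilage markers had median log2 differences of 2.84 in condyle and 2.96 in fossa. Limma called none of the bone markers in condyle and 2 of them higher in fossa, and their part in this list was not tested. Collagen VI chains and the small proteoglycan biglycan led in condyle: Col6a1 was higher by 3.41 ± 0.38 SE (adjusted p = 0.00455), Bgn by 3.09 ± 0.31 (adjusted p = 0.00343) and Col6a2 by 2.87 ± 0.26 (adjusted p = 0.00251). In fossa Col1a1, a chain of the main collagen of tendon and bone, was higher by 2.86 ± 0.59 (adjusted p = 0.0182), and Kera (keratocan), a small proteoglycan also known from cornea, was at least 7.31-fold lower (adjusted p = 0.0294). Six2, a homeobox factor, was at least 4.41-fold higher in condyle than in fossa (adjusted p = 0.00254), where it was at background.

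Among 19 measured regulators upstream of tendon genes, the TGF beta, FGF and BMP-type signals and their receptors, 3 were called higher in condyle than in whole body and none lower. Fgfr1, a receptor of FGF ligands, was higher by 3.18 ± 0.31 SE in condyle (adjusted p = 0.00313) and 2.16 ± 0.31 in fossa (adjusted p = 0.00516), and Fgfr2 by 3.76 ± 0.64 (adjusted p = 0.0192) and 2.91 ± 0.64 (adjusted p = 0.0227). In fossa 3 were higher than in whole body and 2 lower (Fgf18 and Etv4, at background in both groups). Between condyle and fossa 5 were higher in condyle and 1 lower (Tgfb1, at background in both groups). Tgfb3, a ligand that promotes tendon formation, was at least 2.29-fold higher in condyle than in fossa (adjusted p = 0.0199), and Tgfbr1, a receptor subunit, was higher by 1.62 ± 0.37 (adjusted p = 0.0293).

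Of 17 measured genes of periosteum and perichondrium, 1 was higher and 1 lower in each joint tissue against whole body, and none was called between condyle and fossa. Twist1, a mesenchymal transcription factor, was higher by 1.88 ± 0.27 SE in condyle (adjusted p = 0.0114) and 1.11 ± 0.27 in fossa (adjusted p = 0.0327). Ogn (osteoglycin), a small proteoglycan, was lower by a log2 difference of -2.52 ± 0.56 in condyle (adjusted p = 0.0475) and -2.10 ± 0.56 in fossa (adjusted p = 0.0454). The test called no difference in the other 15. Among 11 measured receptors that bind the matrix proteins, 1 was higher and 2 lower in each joint tissue against whole body. Itgb5, an integrin subunit that pairs with alpha v to bind periostin, was higher by 2.75 ± 0.24 in condyle (adjusted p = 0.00212) and 1.72 ± 0.24 in fossa (adjusted p = 0.0047). Cd47, a thrombospondin receptor, was lower, at 6.33 ± 0.33 in condyle and 5.32 ± 0.26 in fossa against 9.26 ± 0.27 in whole body (log2 levels, SD, n = 3 each; adjusted p = 0.00105 and 0.000118).

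The order of the 3 tissues differed from gene to gene. Whole body was highest for Tnmd and for the brightest Col14a1 probe set, and condyle for Col12a1, Tnc, Mkx, Thbs4 and the brightest Thbs2 probe set. Fossa was highest for Postn, and Scx could not be ordered. Neighbours in these orders were separated by the test in 2 places: whole body over fossa in Tnmd, and condyle over fossa in Col12a1. The range of the 3 group means was largest for Tnmd at 2.53, followed by Tnc at 2.02 and Col12a1 at 1.76 log2 units, and smallest for Postn at 0.41 and Scx at 0.18.

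Genes whose pattern over the 9 arrays was most like these 3 were taken by the smallest root mean square difference of mean-centred log2 levels, among 11975 genes above background on at least 3 arrays. For Tnmd these were Fam162b (0.32), Decr1 (0.33) and Tyrobp (0.33). For Tnc they were Islr (0.30), Rcn1 (0.32) and Cpxm1 (0.33), and for Col12a1 Mogs (0.19), Lekr1 (0.21) and Bmp7 (0.24). Levels of Decr1 averaged 7.25 in condyle, 7.59 in fossa and 9.52 in the whole body, and levels of Islr 6.68 in condyle, 6.45 in fossa and 4.68 in the whole body. These genes were picked for their likeness, which is a description and no test.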

How the data were processed

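RNA of laser-captured embryo tissue, isolated with a Pico-Pure kit, was labelled as biotinylated cRNA for Affymetrix mouse arrays, per the labels' protocols. The deposited values are linear intensities, from 3.25 upward. The submitters' processing notes name limma; the background correction, normalization and probe summary that the authors used are not given in the sources used here. Log2 was taken after setting values under 1 to 1, which changed none, and the deposited normalization was kept. Depth has no counterpart on arrays, and their number, 3 per group, limits the precision.

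Gene names came from the platform annotation, updated through RefSeq (GRCm38.p6, which changed 0 symbols): 34945 had 1 gene symbol, 932 several and 9160 none in the table used here, and 64 array controls were left out. Limma 3.58.1 in R 4.3.3 (lmFit and eBayes, 6 residual degrees of freedom) was fitted on 45037 probe sets and all 9 arrays in 1 fit of 3 groups. P-values were adjusted by Benjamini-Hochberg over all probe sets, with a threshold of 0.05. The script was tested on simulated data. SE, intervals and p come from this fit, and SD from the 3 arrays of a group. Where a group had arrays at or under background, the fold is "at least", against the higher of the limit and the measured value on each array. This fold compares group means and takes no account of the spread between arrays, which the intervals give. A gene is represented by its brightest probe set, by the mean of all 9 arrays. Each probe set of the 9 genes is named, with array values for the brightest and for those that disagree with it. Up to 4 called genes with the largest difference are named per related list. The members and lists were chosen with earlier results of these data known. Replicate numbers did not pair the arrays: deviations of same-numbered arrays correlated at -0.33 to 0.14, above 0.1 in 1 of 9 pairs. Some joint arrays of different number did deviate together: condyle 1 with fossa 2 at 0.40 and condyle 2 with fossa 1 at 0.32. The remaining pairs of different number lay between -0.14 and 0.0958. Condyle and fossa arrays may thus not be independent, and the block by replicate number does not take this up. Alternatives were quantile normalization, median centring, a common floor, dropping probe sets at background, 1 probe set per gene, only the groups compared, limma-trend, the replicate block and leaving out each array. Labels and files name no batch.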

Additional observations from a re-analysis of the deposited data

Results flagged for a closer look

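The brightest Col12a1 probe set, 1434411_at, differed between the joint tissues in its difference from the whole body. Condyle minus whole body exceeded fossa minus whole body by 1.27 log2 units (adjusted p = 0.037 in limma). Since both share the whole body, this is the condyle minus fossa difference given above and no further result. It was called in 6 of 17 alternative settings. The probe set was higher on 3 of 3 condyle arrays than on every fossa array. The second probe set of the gene, 1427391_a_at, gave 0.43 for the same difference (adjusted p = 0.42).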

How the results depend on the processing

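Over 39 differences of the 13 tendon and periosteum probe sets that were above background on every array of some group, 575 of 648 alternative values kept their direction and their side of the threshold. Another 39 lost the call, 1 gained it (Tnc fossa minus whole body, without fossa 1) and 33 changed sign, none of them called in either setting. The other 5, of Scx, Col12a1 and Col14a1, lay at or near background and enter only the counts of calls. The cause of these changes was not tested, except that a left-out array leaves fewer samples.

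Probe sets called over the whole array between condyle and whole body were 2790, and 1765 under quantile normalization, 1522 with a common floor and 1659 with the replicate block. Between fossa and whole body 7583 were called, and 13352 under median centring, 2094 with the floor and 3559 by 1 probe set per gene. Between condyle and fossa 7206 were called, and 1757 with the floor and 3440 by 1 probe set per gene. By 1 probe set per gene only 18193 were tested, against 45037 in the main fit, so those counts have a smaller base. Leaving out 1 array gave 1520 to 3043, 4796 to 7390 and 4319 to 8084 in these comparisons. The higher share of the calls was 68.0%, 21.9% and 74.9%, against 47.6%, 47.4% and 52.5% under quantile normalization and 78.6%, 67.5% and 62.7% under median centring.

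Of the 18 probe sets, 2 called between condyle and whole body became 1 under quantile normalization (Tnmd, without Col12a1 1434411_at) and 0 with the floor, with only the groups compared and with the replicate block. The 2 called between fossa and whole body became 3 under median centring, with Col12a1 1445751_at, 0 with the floor and 1 by 1 probe set per gene and with the replicate block. Thbs2 1450663_at was not tested by 1 probe set per gene, since it is not the brightest of its gene. Between condyle and fossa the 1 call, Col12a1 1434411_at, stood beside a lower call of Col12a1 1445751_at under median centring, 2 in all. With only the groups compared it was lost (adjusted p = 0.0788), and 2 other probe sets were called lower, Col12a1 1445751_at and Col14a1 1453931_at, both at background in both tissues. The count was 0 under quantile normalization, with the floor and with the replicate block. Leaving out 1 array gave 0 to 2 in each comparison. The replicate numbers did not pair the arrays. With the block Tnmd stayed called in fossa and not in condyle (adjusted p = 0.0703), and Col12a1 1434411_at (adjusted p = 0.0542 against whole body, 0.062 against fossa) and Thbs2 1450663_at (0.0843) were not called.

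Uncalled differences that changed sign under quantile normalization were Thbs2 1447862_x_at (0.33), Thbs4 (0.13) and Col12a1 1427391_a_at (0.22) for fossa minus whole body. For condyle minus fossa they were Thbs2 1447862_x_at (-0.12), Tnc 1416342_at (-0.47), Col12a1 1427391_a_at (-0.11) and Col14a1 1427168_a_at (-0.47). Under median centring the 3 for fossa minus whole body became 0.0199, 0.0118 and 0.084. With the floor, Mkx condyle minus fossa became -0.0626. With arrays left out in turn, signs changed for Postn condyle minus whole body (-0.59 to 0.14). For fossa minus whole body they changed for Mkx (-0.25 to 0.51), Thbs2 1447862_x_at (-0.50 to 0.26), Thbs4 (-0.28 to 0.0696), Postn (-0.0397 to 0.21), Col12a1 1427391_a_at (-0.35 to 0.18) and Col14a1 1428455_at (-0.16 to 0.11). For condyle minus fossa they changed for Tnmd (-0.58 to 0.31), Thbs2 1422571_at (-0.59 to 0.69), Tnc 1416342_at (-0.26 to 0.80), Postn (-0.67 to 0.0497) and Col14a1 1427168_a_at (-0.17 to 0.81).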
